A study of Mus musculus with 19 samples.

Results

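The neonatal stage was set here against the stages before and after it, to ask in which genes 5-hydroxymethylcytosine (5-hmC) around birth lay outside the range of both embryonic and adult cardiomyocytes (CMCs). For each autosomal protein-coding gene of at least 5 kb, the percent of the gene lying under 5-hmC peaks was scaled to the total peak bases of its file. A gene was called neonatal-high when both neonatal values lay above all 4 values of E14.5 and adult CMCs, and neonatal-low when both lay below them. Of 15498 genes, 520 (3.36%) were neonatal-high and 562 (3.63%) were neonatal-low. The genes were chosen by these values, so levels of the members are given as a description and not as a finding.

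5-hmC is made from methylated cytosine by the TET dioxygenases, a step on the way to unmodified cytosine that can also persist in non-dividing cells. In differentiated cells it lies mainly along the bodies of transcribed genes and at enhancers, and it is low at active promoters. Around birth the heart passes from the low-oxygen, carbohydrate-burning fetal state to oxidation of fatty acids, and its CMCs stop dividing and exchange fetal for adult sarcomere proteins.

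The series held 19 samples, of which 8 were 5-hmC immunoprecipitations (hMeDIP) with a deposited peak list, and 6 of these were compared here. All samples were labelled C57BL/6J and came from males, with 2 biological replicates at E14.5, at 1 to 2 days after birth (neonatal) and at 2 months (adult). The remaining 2 lists, kept out of the rule, were from adult hearts whose left ventricle had been overloaded for 1 week by surgical narrowing of the aorta, named TAC in the labels. E14.5 and neonatal CMCs were prepared by collagenase digestion of ventricles and repeated plating to remove other cells, whereas adult CMCs came from enzyme perfusion of the left ventricle and settling, so for the adult files stage and method of isolation cannot be told apart. The lists held 104215 to 153637 peaks covering 76.2 to 119 Mb, the largest being the list of neonatal replicate 2. Read depth was not given in the lists, and every peak carried the same score, so the height of a peak could not be compared. The cells were described by summed scaled percents of marker genes. For 15 CMC markers the sums were 209 and 308 in E14.5, 350 and 405 in neonatal and 212 and 232 in adult files. Of these markers 6 were neonatal-high, so their neonatal sums follow in part from the rule. For 15 fibroblast markers the sums were 68.3 and 70.4, 37.6 and 48.1, and 32.3 and 36.7 in the same order. Col3a1 and Lum were at 0 in all 6 files. For 12 smooth muscle and pericyte markers the sums were 106 and 148, 159 and 171, and 157 and 172. For 16 endothelial markers they were 159 and 179, 145 and 157, and 140 and 152. Per gene, adult files had 14.1 and 15.5 for CMC and 13.1 and 14.3 for smooth muscle and pericyte markers. In bulk cells, fewer cells that carry the mark at a gene and less mark per cell cannot be told apart.

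To show what neonatal peaks in these genes cover, 5 stretches that lay under a peak in both neonatal lists and under none in the E14.5 and adult lists are given first, one each for a growth inhibitor, a mitochondrial carrier, an ATP synthase subunit, a splicing factor and a transcription factor. For each gene the middle of its widest such stretch is shown, up to 300 bases of the plus strand of GRCm38.p6 (mm10), with CpG dinucleotides, the main site of cytosine methylation, in capitals. All 5 lay in introns, between 2.81 kb (Tob2) and 143.85 kb (Rbm20) downstream of the nearest annotated start of the gene. No TAC list had a peak in any of them. Repeat-masked bases made up 41.3% of the Slc25a3 window and 44.3% of the Gata4 window.
Tob2 (chr15:81855371-81855670): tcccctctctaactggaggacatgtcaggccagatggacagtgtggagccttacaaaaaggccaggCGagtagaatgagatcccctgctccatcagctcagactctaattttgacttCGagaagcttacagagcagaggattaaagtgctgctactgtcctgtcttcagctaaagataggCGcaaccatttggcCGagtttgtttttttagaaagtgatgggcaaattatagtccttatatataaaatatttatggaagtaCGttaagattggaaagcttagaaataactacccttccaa
Slc25a3 (chr10:91120654-91120953): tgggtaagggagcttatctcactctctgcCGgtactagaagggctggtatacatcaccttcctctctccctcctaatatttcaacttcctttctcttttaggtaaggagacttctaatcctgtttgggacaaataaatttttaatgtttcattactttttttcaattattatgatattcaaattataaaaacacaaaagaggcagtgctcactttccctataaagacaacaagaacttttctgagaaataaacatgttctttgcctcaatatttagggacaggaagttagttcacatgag
Atp5c1 (chr2:10067629-10067807): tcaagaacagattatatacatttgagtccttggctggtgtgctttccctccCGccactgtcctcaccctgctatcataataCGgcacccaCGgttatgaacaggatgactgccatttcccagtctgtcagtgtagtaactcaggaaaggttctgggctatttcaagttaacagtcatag
Rbm20 (chr19:53821007-53821306): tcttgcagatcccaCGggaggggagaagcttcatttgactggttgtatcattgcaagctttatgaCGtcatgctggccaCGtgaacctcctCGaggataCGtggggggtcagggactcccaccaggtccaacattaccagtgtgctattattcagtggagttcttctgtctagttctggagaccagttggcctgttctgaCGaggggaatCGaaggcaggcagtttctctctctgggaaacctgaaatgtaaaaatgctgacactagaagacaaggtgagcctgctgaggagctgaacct
Gata4 (chr14:63216806-63217105): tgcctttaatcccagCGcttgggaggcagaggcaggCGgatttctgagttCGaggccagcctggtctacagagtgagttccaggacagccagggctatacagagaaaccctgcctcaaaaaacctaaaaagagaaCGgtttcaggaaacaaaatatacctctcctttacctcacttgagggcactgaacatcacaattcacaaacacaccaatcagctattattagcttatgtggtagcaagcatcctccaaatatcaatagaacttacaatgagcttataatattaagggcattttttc

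The neonatal-high gene with the widest gap was Cish (chr9:107296659-107302784), which encodes a suppressor of cytokine signalling through STAT5. Peaks covered 57.4% and 58.5% of Cish in the neonatal files, 14.7% and 10.8% in E14.5, 10.3% and 0% in adult and 0% in both TAC files, all on the scaled measure. Both neonatal files thus stood 42.7 percentage points above the next file. The bases covered in both neonatal lists formed 1 stretch of 3.08 kb in the downstream part of the gene, from 2.67 to 5.75 kb past its start. On the scale of log2(percent + 0.5), neonatal exceeded E14.5 by 2.16 and adult by 4.66, each with a standard error of 1.5 (limma, adjusted p of the smaller difference = 1).

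Apart from Kcng2 (69.7 kb), the neonatal-high genes with the widest gaps in percent were short, from 5.01 kb (Slc25a34) to 10.1 kb (Tob2). These short genes held at most 3 peaks in any list. Several of them act in mitochondria. Cpt1b (chr15:89416405-89425862) encodes the muscle carnitine palmitoyltransferase that admits long-chain fatty acids to mitochondria. Its scaled percents were 78.5 and 71.9 in neonatal, 21.8 and 10.6 in E14.5, and 25.3 and 44.5 in adult files. Cox4i1 (chr8:120668225-120674209), a subunit of cytochrome c oxidase, had 75.9 and 68.7 in neonatal against 8.96 and 0 in E14.5 and 26.4 and 53.3 in adult files. In both genes the adult files lay between E14.5 and neonatal, and differed from each other by more than the neonatal files did. The neonatal lists held 2 and 1 peaks in each of the 2 genes. In Cpt1b the E14.5 lists held 3 and 2, and in Cox4i1 both adult lists held 2, so these gaps did not come from a larger number of peaks. Slc25a3 (chr10:91116574-91123967), the mitochondrial phosphate carrier, had 51.1 and 33.1 in neonatal files, with 7.25 and 0 in E14.5 and 8.51 and 6.68 in adult. The E14.5 and adult ranges of Slc25a3 overlapped, and the stretch printed above lay in the part covered in neonatal lists alone. Atp5j, which encodes coupling factor 6 of ATP synthase and overlaps another coding gene, had 35.5 and 43.2 in neonatal files against 6.47 to 17.7 in the other 4. Slc25a34, a member of the mitochondrial carrier family, had 51.8 and 57.5 against 15 to 28.3. TAC replicate 1 reached 46.7 for Atp5j and 51.8 for Slc25a34, and TAC replicate 2 held 9.51 and 0.

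The other genes with wide gaps included regulators of growth and transcription. Tob2 (chr15:81848270-81858326), an antiproliferative protein of the BTG/TOB family, had 52.6 and 47.4 in neonatal files, 5.33 and 4.99 in E14.5 and 12.0 and 21.4 in adult. Bhlhe40 (chr6:108660629-108666925), a transcriptional repressor linked to the circadian clock and hypoxia, had 43.8 and 44.4 in neonatal files, none in E14.5, and 18.7 and 10.9 in adult. At E14.5 Bhlhe40 was bare, whereas Tob2 lay above the medians of all genes in those files (3.99 and 3.64). Both genes had a smaller covered part in adult than in neonatal files. In TAC replicates 1 and 2, Bhlhe40 had 48.1 and 0, and Tob2 had 19.8 and 7.33. Fem1a, a substrate receptor of a ubiquitin ligase, had 42.0 and 34.2 in neonatal, 10 and 12.7 in E14.5 and 0 in both adult files. Kcng2, a modifying subunit of voltage-gated potassium channels, had 46.4 and 43.8 against 17.9 to 27.9 in the other 4 files. In the plot of the widest gaps, the neonatal replicates of Bhlhe40, Cish, Tspan18 and Sorbs2 nearly coincided, whereas those of Slc25a3 lay well apart.

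**Figure D1:**
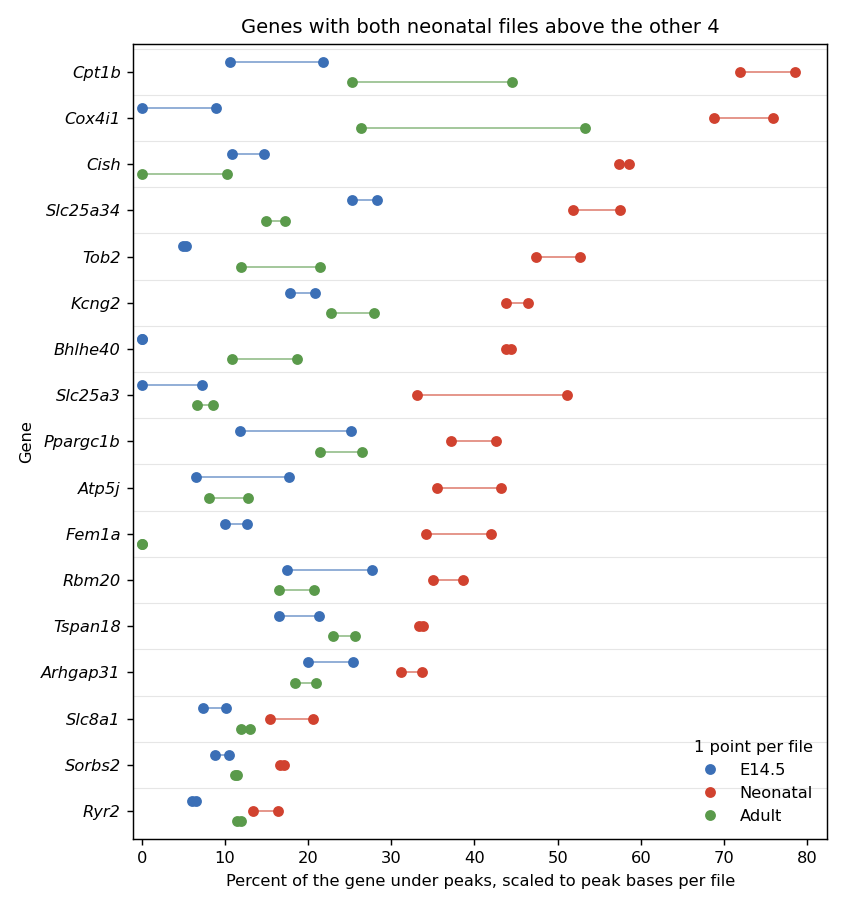
Percent of each gene under 5-hmC peaks, scaled to the peak bases of each file, for the neonatal-high genes with the widest gaps in percent or in bases. Each point is 1 file, and a line joins the 2 replicates of a stage; by the rule, both red points lie to the right of the blue and green ones, by 42.7 points in Cish and by 1.44 points in Ryr2.

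Ranked by covered bases, the list was headed by long genes. Sorbs2, an adaptor protein of Z-discs and intercalated discs, was covered to 17.1% and 16.7% in neonatal files, 10.46% and 8.84% in E14.5 and 11.4% and 11.2% in adult, so that 16.8 kb of scaled peak separated the groups. Rbm20 (chr19:53677306-53867080), the splicing factor that sets the isoforms of titin, had 35.1% and 38.7% in neonatal, 27.7% and 17.5% in E14.5 and 16.5% and 20.7% in adult files. Ryr2, the calcium release channel of the sarcoplasmic reticulum, had 16.3% and 13.3% in neonatal, 6.49% and 6.06% in E14.5 and 11.4% and 11.9% in adult files. The neonatal lists held 109 and 107 peaks in Ryr2, the E14.5 lists 49 and 43 and the adult lists 68 and 85, as raw counts from lists of unequal size, and Ryr2 was not called by peak centres scaled to the length of each list. Of the stretches found in both neonatal lists alone, 15 lay in Ryr2, more than in any other gene tested. The count was not set against gene length: Ryr2 spans 554 kb, and another neonatal-high gene held 8 in 73.7 kb. Slc8a1, the sodium-calcium exchanger, had 20.6% and 15.4% in neonatal against 7.37% to 13.1% in the other files, and held 8 such stretches. Ppargc1b, a coactivator of genes of mitochondrial oxidation, had 42.6% and 37.2% against 11.8% to 26.5%. Tspan18, a tetraspanin, and Arhgap31, a GTPase-activating protein, had neonatal means of 33.6% ± 0.305 and 32.5% ± 1.81 (SD, n = 2), with 25.6% and 25.4% as the highest values elsewhere. By limma, none of these long genes passed the threshold, and the adjusted p was 1 for Ryr2, Rbm20, Sorbs2 and Slc8a1.

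Neonatal-high genes made up a larger share of the CMC gene sets than of all genes, a difference that was described and not tested, since the sets were chosen with results of these data known. Of 43 tested genes of the sarcomere and Z-disc, 9 were neonatal-high (20.9%, against 3.36% of all genes) and 2 were neonatal-low. The mean scaled percent of the 43 was 18.1 and 14.7 in E14.5, 23.0 and 21.6 in neonatal and 17.3 and 19.6 in adult files. Of 25 cardiac transcription factors, 6 were neonatal-high (24%) and none was neonatal-low. Their mean scaled percent was 13.2 and 11.2 in E14.5, and neonatal (17.2 and 17.0) and adult files (17.3 and 16.6) overlapped. Of 15 CMC markers, 6 were neonatal-high (40%) and none was neonatal-low, and the median difference between neonatal and the mean of E14.5 and adult over these markers was 7.0 points, against −0.19 over all genes. Counted instead as peak centres per kb, 2 sarcomere genes, 4 transcription factors and 1 CMC marker were neonatal-high, beside 2.92% of all genes, so the counts for the sarcomere and the markers depended on counting covered bases and not peaks. Under the remaining alternatives tried on all 6 files, the sarcomere count lay between 6 and 16 and the CMC marker count between 6 and 10.

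Within the sarcomere set, titin and proteins of the thin filament, thick filament and Z-disc were each represented. Xirp1, an actin-binding protein of intercalated discs and costameres, had 53.2% and 52.5% in neonatal files, 44.0% and 13.0% in E14.5 and 1.89% and 4.30% in adult. Myl3, the ventricular essential myosin light chain, had 42.3% and 46.9% in neonatal, 8.75% and 33.1% in E14.5 and 14.6% and 17.5% in adult files. For Tpm1, an alpha-tropomyosin gene, the values were 62.3% and 42.9% against 24.6% to 41.5%. The gap in Ttn was only 0.0973 points, since adult replicate 1 (34.1%) nearly reached neonatal replicate 2 (34.2%), and its neonatal replicate 1 held 42.3%. Lmod2, Ldb3, Pdlim5, Trim63 and Trim55 completed the 9, with gaps of 0.589 (Trim63) to 6.57 points (Lmod2). The 2 neonatal-low members, Tnni1 and Myl4, encode the slow skeletal troponin I and the atrial light chain, both of which the fetal ventricle expresses. Tnni1 had 18.3% and 11.1% in neonatal files, below 32.5% and 33.6% in E14.5 and 51.0% and 30.8% in adult. Myl4 had 9.65% and 16.6% in neonatal files against 18.1% to 20.4% in the others.

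Among transcription factors, Gata4 (chr14:63198914-63245271), a zinc-finger activator of cardiac genes, had 29.3% and 21.6% in neonatal, 14.0% and 6.52% in E14.5 and 12.6% and 15% in adult files. Srf, which drives muscle and growth genes, had 27.3% and 28.1% against 9.90% to 17.3%. The other 4 were Tbx20, Tbx3, Meis2 and Myocd, with gaps of 0.104 (Tbx3) to 1.10 points (Tbx20). Gata6, the other GATA factor of the ventricle, was not called. It had 25.3% and 32.5% in neonatal, 27.0% and 16.2% in E14.5 and 3.8% and 10.1% in adult files, so its neonatal and E14.5 ranges overlapped. Without scaling to the peak bases Gata6 was neonatal-high.

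Genes of calcium handling and of the intercalated disc gave smaller shares. Of 43 ion channel and calcium handling genes, 6 were neonatal-high (14.0%) and 2 were neonatal-low. The mean scaled percent of this set was 15.5 and 13.8 in neonatal against 16.9 and 18.3 in adult files. Atp2a2, the calcium pump of the sarcoplasmic reticulum, had 34.3% and 21.3% in neonatal against 10.7% and 4.97% in E14.5 and 5.17% and 5.28% in adult files. Kcnj2, the channel of the inward rectifier current, had 36.8% and 25.8% in neonatal, 5.03% and 4.70% in E14.5 and 23.1% and 17.0% in adult files. Jph2, which holds the sarcoplasmic reticulum at the T-tubule, had 42.1% and 43.1% against 16.9% to 38.2%, and Cacnb2, a calcium channel subunit, had a gap of 0.0871 points. Among the neonatal-low members was the pacemaker channel Hcn4, which had 6.06% and 7.14% in neonatal, 13.0% and 8.57% in E14.5 and 21% and 27.8% in adult files. Of 55 genes of the intercalated disc and costamere, 7 were neonatal-high (12.7%), namely Sorbs2, Ctnnb1, Pkp2, Lims1, Ctnna3, Sntb1 and Sntb2, and 1 was neonatal-low. The mean scaled percent of the 55 was 14.8 and 14.6 in neonatal against 17.7 and 17.4 in adult files. Ctnnb1, the beta-catenin of adherens junctions, had 35.3% and 25.7% against 5.55% to 23.8%.

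In the metabolic sets the calls were likewise mostly high, while the mean level of each set was highest in adult files, as in the ion channel and intercalated disc sets. Of 47 genes of the respiratory chain and TCA cycle, 9 were neonatal-high (19.1%) and none was neonatal-low. Among the 9 were subunits of complex I (Ndufv2, Ndufb9), complex IV (Cox4i1, Cox5a) and ATP synthase (Atp5b, Atp5c1, Atp5j), and Dlst of the TCA cycle. Atp5c1, the gamma subunit of ATP synthase, had 42.8% and 30.3% in neonatal, 15.7% and 12.6% in E14.5 and 10.3% and 5.16% in adult files. Cox5a and Atp5b held no peak in the adult or TAC lists, with 15.8% and 20.7%, and 17.6% and 27.8%, in neonatal files. In E14.5 files Cox5a had 6.89% and 11.0%, and Atp5b had 9.47% and 7.08%. Ndufv2, with a gap of 0.00951 points, lay at the border of the rule. The median difference over the 47 genes was −0.23 points, close to that of all genes, and their mean scaled percent was 17.1 and 15.3 in neonatal against 19.0 and 18.8 in adult files. Of 46 genes of fatty acid uptake and oxidation, 6 were neonatal-high (13.0%), namely Cd36, Cpt1b, Etfb, Ppargc1a, Ppargc1b and Acot2, and Acsl6 was neonatal-low. The mean scaled percent of the 46 was 18.2 and 18.1 in neonatal against 23.3 and 24.8 in adult files. Cd36, the fatty acid transporter, had 6.64% and 5.48% against 2.11% to 3.94%, and Ppargc1a, the inducer of mitochondrial biogenesis, had 12.0% and 12.5% against 4.08% to 9.97%. With the same number of peaks drawn from each list, 3 genes of fatty acid oxidation and 8 of the respiratory chain were neonatal-high. Counted as peak centres per kb, 3 and 4 were, and by percentile rank 8 and 14. Of 30 genes of glucose use, Hk1 and Eno1 were neonatal-high (6.67%). The set means were 14.0 and 16.3 in neonatal against 23.7 and 19.6 in adult files.

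The remaining pathway sets had at most 8.33% of genes neonatal-high and 8% neonatal-low, beside 3.36% and 3.63% of all genes, on few genes each. Of 67 cell cycle genes, 4 (5.97%) were neonatal-high (Rb1, Cdc6, Kif11, Cenpe) and Racgap1 was neonatal-low (1.49%). Of 61 genes of growth factor signalling, 2 (3.28%) were neonatal-high (Grb10, Met) and 4 (6.56%) neonatal-low (Fgfr1, Fgfr3, Pik3cb, Braf). Fgfr1, a receptor for fibroblast growth factors, had 14.8% and 13.1% in neonatal files against 18.3% to 24.5% in the others. Of 48 nuclear receptors and coregulators, 4 (8.33%) were neonatal-high, which were Esr2, Ppargc1a, Ppargc1b and the thyroid hormone deiodinase Dio2. Another 3 (6.25%) were neonatal-low, which were Thrb, Nr4a1 and Nr4a3. Nr4a1, an immediate-early nuclear receptor, had 6.19% and 7.86% in neonatal files, 19.1% and 11.7% in E14.5 and 26.2% and 61.1% in adult. Of 50 autophagy and lysosome genes, 4 (8%) were neonatal-low (Atg4b, Atg10, Bnip3, Sesn2) and Wipi2 was neonatal-high (2%). Neonatal values lay above the mean of E14.5 and adult in 6 of these 50 genes, beside 6013 of all 15498. The mean scaled percent of the 50 was 5.47 and 4.40 in E14.5, 6.40 and 6.66 in neonatal and 13.8 and 13.4 in adult files. As a set, neonatal thus lay above E14.5 and below adult.

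Of 76 chromatin regulators, 2 (2.63%) were neonatal-high (Mbd5, Hdac9) and 3 (3.95%) neonatal-low (Dnmt1, Hdac5, Smarcc1), beside 3.36% and 3.63% of all genes. Dnmt1, the maintenance methyltransferase, had 4.21% and 4.23% in neonatal files against 4.56% to 8.40%. Of 42 hypoxia and redox genes, 3 (7.14%) were neonatal-high (Egln3, Nqo1, Gpx3) and Bnip3 was neonatal-low (2.38%). Egln3, an oxygen-sensing prolyl hydroxylase, had 44.6% and 34.6% against 11.8% to 22.2%. Of 66 axon guidance genes, 3 (4.55%) were neonatal-high (Sema6d, Nrp1, Ncam1) and 2 (3.03%) neonatal-low (Unc5a, Ephb2). Of 60 Wnt pathway genes, Ctnnb1 was neonatal-high (1.67%) and Fzd3 and Celsr2 were neonatal-low (3.33%). Among 26 angiogenesis and Notch genes, Angpt1 and Vegfc were neonatal-high (7.69%) and Maml3 was neonatal-low (3.85%). Taok1 was neonatal-high among 38 Hippo pathway genes (2.63%), and no gene of the 52 in the TGF-beta and BMP set was called either way.

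Markers of other cells the preparations could hold gave few calls in either direction. None of 15 fibroblast and none of 12 immune markers was neonatal-high or neonatal-low. Of 16 endothelial markers Tie1 was neonatal-low (6.25%), of 8 erythroid markers 1 was neonatal-low (12.5%), and of 11 epicardial markers Wt1 was neonatal-high (9.09%). Of 12 smooth muscle and pericyte markers, Mcam and Kcnj8 were neonatal-high (16.7%) and Cnn1 was neonatal-low (8.33%), shares above those of all genes that rest on 1 or 2 genes each. The summed level of the epicardial markers was 84.8 and 96.3 in E14.5, 49.2 and 64.4 in neonatal and 19.2 and 39.7 in adult files. The part of other cells in the calls was not tested beyond these values.

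**Figure D2:**
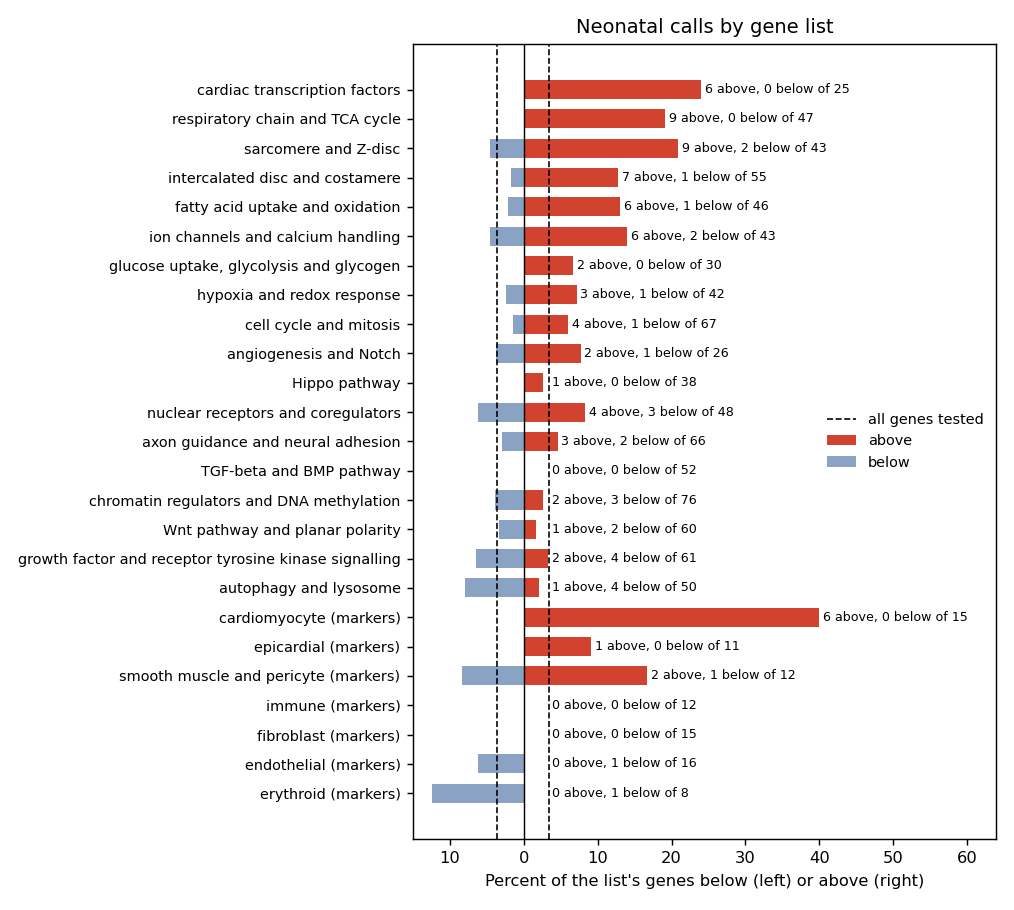
Percent of the tested genes of each list that were neonatal-low (blue, left) or neonatal-high (red, right), with the counts printed beside each bar. Dashed lines mark the shares among all 15498 genes, 3.63% and 3.36%; the bars for CMC markers (40%), cardiac transcription factors (24%), sarcomere (20.9%) and respiratory chain (19.1%) reach furthest to the right.

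The neonatal-low genes with the widest gaps in percent were, like most of the neonatal-high genes ranked so, short genes with few peaks in any list. Gm6569, a predicted gene that overlaps another coding gene, had 14.48% and 15.2% in neonatal files, 40.3% and 47.0% in E14.5 and 40.3% and 32.1% in adult. Eif5a (chr11:69916712-69921958), a translation factor, held no neonatal peak, 1 peak in each E14.5 list and 1 and 2 peaks in the adult lists. Its scaled percents were 10.2 and 9.56 in E14.5 and 12.0 and 18.8 in adult files. The presence or absence of 1 peak thus decided the gap of 9.56 points. Mon1b, which helps to activate Rab7 on late endosomes, Slc22a7, an organic anion transporter, Xrcc3, a protein of DNA repair by recombination, Apbb3, which binds the amyloid precursor protein, and Eif2b4, a subunit of the exchange factor eIF2B, likewise held no peak in either neonatal list. Their gaps lay between 8.99 (Eif2b4) and 11.2 points (Mon1b), and Mon1b, Xrcc3 and Apbb3 overlapped other coding genes. Both TAC lists held peaks in Mon1b, Slc22a7, Xrcc3, Eif5a and Eif2b4, and 1 of the 2 did so in Apbb3.

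Ranked by bases, the neonatal-low genes were long. Ephb2, a receptor for ephrin-B ligands, had 9.23% and 11.1% in neonatal files, 14.7% and 20.1% in E14.5 and 14.49% and 16.6% in adult. Nfasc, the cell adhesion molecule neurofascin, had 3.57% and 4.11% in neonatal files, 6.796% and 6.72% in E14.5 and 8.17% and 7.14% in adult. Camta1, a calmodulin-binding transcription activator, had 8.76% and 9.03% against 10.2% to 13.6%, and Rnf220, a ubiquitin ligase, had 4.78% and 5.63% against 7.85% to 9.0%. In all 4 genes the TAC values lay above the higher neonatal value. For comparison with the stretches above, the 1 stretch of Ephb2 under a peak in all 4 E14.5 and adult lists and in neither neonatal list is given whole. It was intronic, 121 bases long, and held no CpG. TAC replicate 2 had a peak there and TAC replicate 1 had none.
Ephb2 (chr4:136740489-136740609): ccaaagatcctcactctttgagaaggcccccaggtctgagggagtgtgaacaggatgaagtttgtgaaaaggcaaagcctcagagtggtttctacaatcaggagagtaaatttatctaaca

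**Figure D3:**
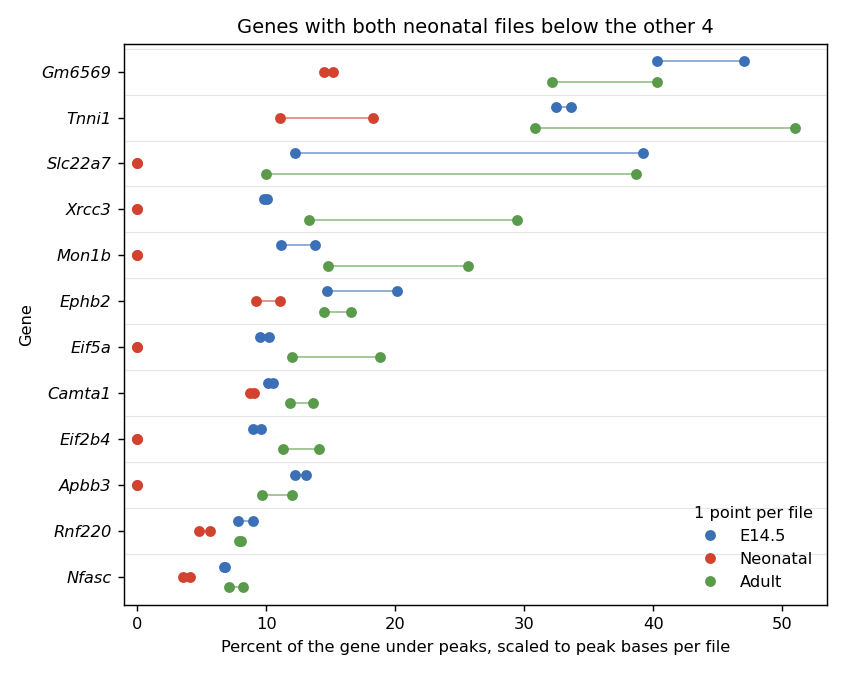
The same measure for the neonatal-low genes with the widest gaps, 1 point per file. Both neonatal points lie to the left of the other 4 by the rule, and they sit at 0 in Mon1b, Slc22a7, Xrcc3, Apbb3, Eif5a and Eif2b4.

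As a set, the members split by the order of the other stages. In 110 of the 520 neonatal-high genes both E14.5 values lay below both adult values, in 98 both adult values lay below, and in 312 the ranges overlapped. In the 562 neonatal-low genes these counts were 212, 56 and 294, and over all 15498 genes they were 4854, 2605 and 8039. The gap was at least 1 point in 289 and at least 10 points in 19 neonatal-high genes, with a median of 1.25, and it was at least 1 point in 218 and at least 10 in 4 neonatal-low genes, with a median of 0.679. At the border of the rule, Prkd3 entered with a lower neonatal value of 4.643% against 4.641% elsewhere, and Rif1 stayed out with 1.825% against 1.833%, a gap of −0.00729 points. All 4 other values were 0 in 53 neonatal-high genes, whose neonatal means ran from 0.649% to 23.0% (Cox6c, a subunit of cytochrome c oxidase, named after its values were seen). Both neonatal values were 0 in 34 neonatal-low genes.

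The number of members was set beside the other ways to choose 2 of the 6 files, as the design asks. Over the 15 ways the mean was 907 genes above and 775 below the other 4 files, so the neonatal pair gave 0.574 and 0.725 times the mean. At least as many genes as in the neonatal pair lay above in 13 of 15 ways (exact permutation test over files, one-sided p = 0.867) and below in 7 of 15 (p = 0.467), where the smallest p these files allow is 0.0667. The adult pair gave 3320 above (21.4%) and 1449 below (9.35%), and the E14.5 pair 1207 (7.79%) and 2055 (13.3%). The 12 pairs that mixed stages gave 410 to 1018 above, and E14.5 replicate 2 with neonatal replicate 2 gave the most, 1018 above and 1285 below. Both counts for the neonatal pair lay within the range that pairs of mixed stage gave. Without scaling to the peak bases the neonatal-high count was instead above the mean, at 1103 genes or 1.34 times, and the neonatal-low count was 0.242 times the mean. E14.5 and neonatal files of the same replicate number gave 826 and 1018 genes above, and those of unlike numbers 410 and 551. A limma fit of the 13068 genes with a mean of at least 1% over the 6 files, on the scale of log2(percent + 0.5), called no gene different from both stages in the same direction at an adjusted p under 0.05. At an unadjusted p under 0.05 it found 49 higher (0.375%) and 51 lower (0.39%), and the lowest adjusted p was 0.161, shared by Apbb3, Mon1b and Eif5a among others.

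**Figure D4:**
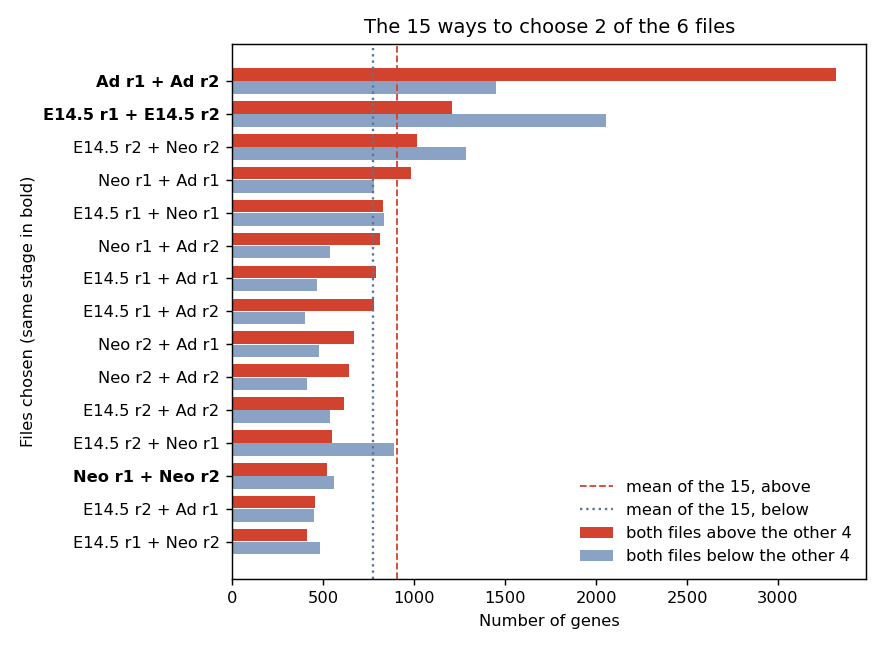
Number of genes for which both chosen files lay above (red) or below (blue) the other 4, for each of the 15 choices of 2 files, ordered by the red bars. Dashed and dotted lines mark the means, 907 and 775; the neonatal pair (520 and 562) lies left of both lines, and the adult pair (3320) is the longest red bar.

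The scaling bore on the balance of the calls. Without scaling to the total peak bases, 1103 genes were neonatal-high and 169 neonatal-low, so that 86.7% of the calls were high instead of 48.1%. All 520 neonatal-high genes were among the 1103, and 169 of the 562 neonatal-low genes (30.1%) were called low. The overlap was fixed in advance, since the scaling multiplied the neonatal files by 0.982 and 0.807 and the other 4 by 0.986 to 1.26. A gene that is high after such scaling must be high without it, and a gene low without it must be low after it. Of the 520, 431 were neonatal-high after scaling to peak bases on genes, 391 by percentile rank within each file, 285 after drawing the same number of peaks from each list and 275 by peak centres per kb. Called in all 6 settings that kept the genes and files were 138 neonatal-high (26.5%) and 71 neonatal-low genes (12.6%), among them Cish, Tob2, Bhlhe40, Slc25a3, Nfasc, Mon1b, Slc22a7 and Eif5a. Of the 6, the setting without scaling could not remove a neonatal-high gene. Cpt1b, Cox4i1 and Fem1a were not called after drawing the same number of peaks, where Slc25a34 was neonatal-low. By peak centres, only Cish, Tob2, Bhlhe40, Slc25a3 and Fem1a of the neonatal-high genes ranked by gap were still called. Cpt1b, Cox4i1, Atp5j, Slc25a34, Kcng2, Tspan18, Arhgap31, Ryr2, Sorbs2, Rbm20, Slc8a1 and Ppargc1b were not. The neonatal-low Tnni1, Xrcc3, Apbb3 and Eif2b4 were not called after drawing the same number of peaks, nor Tnni1 and Gm6569 by peak centres. Among the long neonatal-low genes, Camta1, Ephb2 and Rnf220 were not called without scaling, nor Camta1 and Ephb2 by percentile rank, nor Camta1 after drawing the same number of peaks.

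The neonatal-high genes stood apart in exons, introns and around their starts, largely by choice, since the rule used the bases of the gene. The sequence beside them did not stand apart. Their introns were covered to 9.84% in neonatal files on average, 6.05% in E14.5 and 6.24% in adult, and their exons to 15.6%, 7.86% and 12.2%. The 1 kb on each side of the starts had 7.75%, 5.60% and 5.27%. Over all genes, in the same order, introns had 5.87%, 5.34% and 6.74%, and exons 7.49%, 6.71% and 11.4%. The starts of all genes had 5.88%, 5.84% and 6.54%. In the 20 kb upstream, which the rule did not use, the neonatal values of 5.24% and 5.66% overlapped those of the other files (4.95% to 5.30%), and in the 20 kb downstream 5.83% and 5.81% lay within 5.36% to 5.96%. Of 466 neonatal-high genes with at least 10 kb of flank free of other genes, 24 (5.15%) had a flank above all 4 others, beside 3.82% of all genes. The neonatal-low genes had 4.38% of introns and 4.71% of exons covered in neonatal files, against 6.64% and 8.33% in E14.5 and 8.24% and 12.6% in adult. Their downstream flank was lower too, at 4.74% and 4.94% against 5.22% to 5.83% in the other 4 files. Over all genes it had 4.31% and 4.57% in neonatal against 4.47% to 4.75% in the others. The upstream flank of the neonatal-low genes, at 4.72% and 5.19%, overlapped the other files (4.57% to 5.60%). Of 477 neonatal-low genes with at least 10 kb of such flank, 29 (6.08%) had it below all 4 others, beside 3.90% of all genes.

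**Figure D5:**
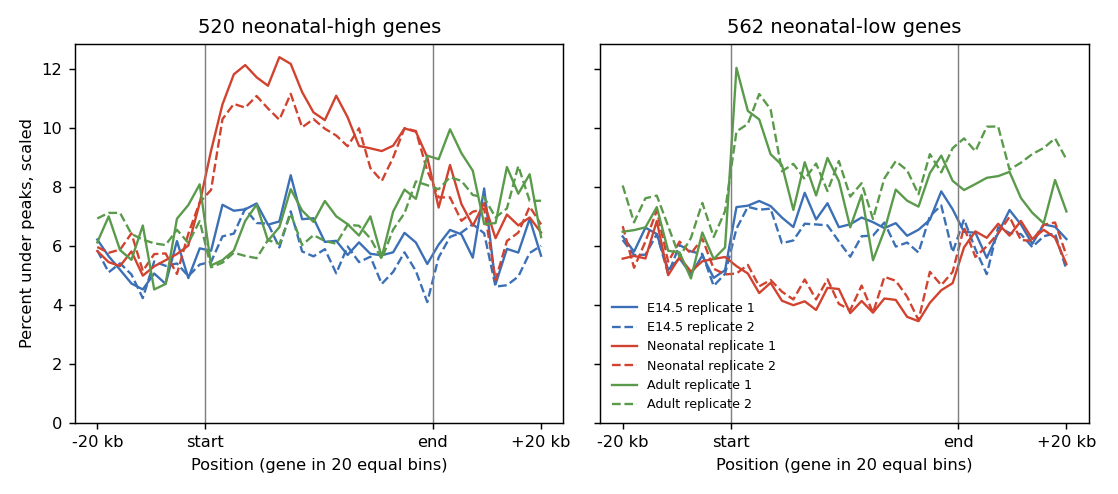
Mean scaled percent under peaks along the neonatal-high (left) and neonatal-low genes (right), in 20 equal bins per gene and in bins of 2 kb up to 20 kb on each side. Each line is 1 file; the neonatal lines lie above (left) or below (right) the others over the genes except in the last bin of the neonatal-high genes, where adult replicate 1 (9.06%) reaches past both (9.01% and 8.55%), and they run among them in the upstream flank.

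Neonatal-high genes had a median length of 32.0 kb and neonatal-low genes of 29.1 kb, against 25.3 kb over all genes. The share called high ran from 2.37% of genes of 5 to 10 kb to 4.76% of those over 100 kb. Of the neonatal-high genes 9.23% overlapped another coding gene, and of the neonatal-low genes 16.0%, against 11.5% of all. The median density of CpG over the gene was 1.12 per 100 bases in neonatal-high and 1.35 in neonatal-low genes, with 1.19 over all genes. The neonatal-high genes were spread over all 19 autosomes, from 2.69% of the genes of chromosome 19 to 5.59% of those of chromosome 16.

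At the level of single regions, both neonatal lists shared 65363 autosomal stretches, of which 5831 touched no peak in the other 4 lists. Such stretches lay in 262 of the 520 neonatal-high genes (50.4%), 31 of the 562 neonatal-low genes (5.52%) and 2352 of all 15498 (15.2%), an order that the rule favours. Cish and Cpt1b held none, since each stretch that both neonatal lists shared there touched a peak of another list. In windows of 300 bases at their centres, the stretches in neonatal-high genes had 1.45 CpG per 100 bases, those in other genes 1.496, and stretches of the same neonatal-high genes that also touched a peak of another list 1.73. Motifs were searched on both strands as exact letters. AGATAA, the core bound by zinc fingers of the Gata4 family, occurred in 16.6%, 17.6% and 16.0% of these 3 kinds of window. GGAATG, bound by TEAD factors, occurred in 21.1%, 18.6% and 16.6%. CAGCTG, an E-box, occurred in 14.7%, 15.4% and 16.1%. The MEF2 motif CTAAAAATA was rare, in 5 of 422 (1.18%), 26 of 2840 (0.915%) and 13 of 2247 windows (0.579%). No test was made of these shares.

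The TAC files, which the rule did not use, gave a further reading of the same genes in overloaded adult CMCs. The median of the neonatal-high genes was 5.98% in TAC replicate 1 and 4.86% in replicate 2, against 9.74% and 8.40% in neonatal, 4.0% and 4.04% in E14.5 and 4.37% and 4.07% in adult files. TAC replicate 1 lay above all 4 E14.5 and adult files in 201 of the 520 (38.7%) and replicate 2 in 167 (32.1%), beside 20.2% and 18.7% of all genes. Among neonatal-low genes, TAC lay below those 4 files in 194 (34.5%) and 244 (43.4%) of 562, beside 9.29% and 14.52%. The 4 files used as the yardstick were those that chose the members, so a further file may lie beyond them more often in members than in all genes by the choice alone, and nothing is read from these shares. The TAC value reached the lower neonatal value in 150 (28.8%) and 124 (23.8%) of the neonatal-high genes, beside 75.1% and 69.5% of all genes, a contrast that the choice of members also favours.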

How the data were processed

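Per the labels and the study's methods, CMC DNA was immunoprecipitated with an antibody to 5-hmC, reads were aligned to mm10 with BWA 0.7.4-r385 and filtered with Picard and on mapping quality, and peaks were called per library against input by HOMER in its histone mode. The deposited peak lists give positions and a score column, which holds the same value in every row and was not used. Their header lines state that the precipitated reads were scaled to the control in neonatal replicate 2 and adult replicate 2 and the control to the precipitated reads in the other 4. Overlapping peaks were merged. Gene bounds came from RefSeq annotation of GRCm38.p6, with 21000 coding genes that have a curated transcript, of which 15498 were autosomal and at least 5 kb long. Percents were multiplied by the mean peak bases of the 6 files over those of each file (Python 3.11.15, numpy 2.4.6, pysam 0.24.0). limma 3.58.1 (R 4.3.3) was fitted with a mean per stage, a pseudocount of 0.5 and a minimum mean of 1%, taking the larger p of the 2 differences in the same direction, with Benjamini-Hochberg adjustment. Genes were named by rank of the gap (10 high and 8 low in percent, 8 high and 4 low in bases) and by membership of gene lists; a few list members are not reported here by name. The members, gene lists and tests were chosen with earlier results of these data known. The code was tested on simulated data. Alternatives changed the scaling, measure, gene set, annotation, filters and replicates.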

Additional observations from a re-analysis of the deposited data

How the results depend on the processing

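Both counts kept within 1.5 times their values of 520 and 562 under the other gene lengths, annotations, scaling to bases on genes, equal numbers of peaks, peak centres, the filter on low values and the removal of starts. Without scaling they were 1103 and 169, by percentile rank 742 were high (within 1.5 times) and 1091 low, and with a gap of at least 1 point 289 and 218. Leaving out 1 replicate gave 805 to 1773 high and 842 to 1734 low genes, where fewer files must be exceeded. The ratio to the mean over the choices, added after the data were seen, was 1.34 (high) and 0.242 (low) without scaling; leaving out 1 replicate gave 0.494 to 0.722 (high) and 0.632 to 1.18 (low), and only without E14.5 replicate 2 did the low ratio pass 1 among these. The limma count of 0 became 41 (25 high, 16 low) with a pseudocount of 0.1 and 44 (33 high, 11 low) without the filter on low values, where the cause was not tested, and was 0 to 0 with any 1 replicate left out. Of the genes ranked by gap, the 41 included the neonatal-low Mon1b, Xrcc3, Apbb3, Eif5a and Eif2b4 and no neonatal-high gene. Samples with the same replicate number were not treated as paired, since the labels do not tie them and their deviations correlated at over 0.1 in 1 of 3 stage pairs (0.230 for E14.5 and neonatal, 0.063 and 0.055 for the others), and with a replicate block limma called 0 genes (50 high and 52 low at an unadjusted p under 0.05). With 2 files per stage and no read depth, a difference of 1 short peak could not be told from a peak that missed the caller's threshold.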
